A study of Mus musculus with 2 samples.

Results

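The miRNAs miR-143 and miR-145a are produced from neighbouring hairpins on mouse chromosome 18 and are known as miRNAs of vascular smooth muscle. They were identified by their precursor names, mmu-mir-143 and mmu-mir-145a, and made up 2 of the 1187 precursors listed. Small RNA had been sequenced from hindlimb muscle 1 day after the femoral artery was removed to make the limb ischemic. The hypercholesterolemic library (HC) came from ApoE-/- mice, which lack apolipoprotein E and, per the series' design text, were on a high-fat diet. The normocholesterolemic library (NC) came from C57Bl/6 mice labelled as controls, whose diet is not stated in the labels. Ischemia and the day of sampling were shared by both, while genotype and, as far as stated, diet differed together and cannot be told apart. Neither the strain background of the ApoE-/- mice nor the number of mice behind a library is stated. Each group held 1 library, so the spread between animals could not be estimated and no test was run. Every interval below is a nominal 95% interval of counting error alone, since the reads carry no molecular identifiers and repeated copies of 1 molecule could not be set aside.

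In vascular smooth muscle, a common primary transcript gives rise to both hairpins, and its transcription is driven by serum response factor with the coactivator myocardin. miR-145 holds down Klf4 and Klf5, factors that move smooth muscle cells away from the contractile state, and miR-143 holds down Elk1, a factor of growth-responsive transcription. Both miRNAs are abundant in the contractile cells of the arterial wall and decline when such cells dedifferentiate, as after vessel injury.

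In mm10 the miR-143 hairpin spans chromosome 18, 61649196 to 61649258 (63 bases), and the miR-145a hairpin spans 61647825 to 61647894 (70 bases). Both lie on the minus strand, so that miR-143 is transcribed first, and 1301 bases separate them. The annotations of the same assembly differ on the host. In RefSeq the long noncoding RNA gene Carmn, also named Mir143hg, runs from 61645878 to 61665538 and holds both hairpins. In GENCODE M21 Carmn spans 61649625 to 61665537 on the minus strand, so it ends 366 bases upstream of miR-143. Neither hairpin lies within it. On the opposite strand, the noncoding gene Bvht (Braveheart) ends 352 bases short of miR-145a in GENCODE M21. Neither Carmn nor Bvht was measured, since the counts cover miRNA precursors.

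The HC library held 31198050 counts over all precursors and the NC library 43848576. Counts were scaled by TMM (the trimmed mean of M-values) and given as CPM, that is, divided by the scaled library size and multiplied by 1000000. The 222 precursors whose mean over both libraries reached 10 CPM were compared. The 6 precursors listed for skeletal muscle (miR-1a-1, both miR-133a copies, miR-133b, miR-206 and miR-486a) summed to 275875 CPM in HC and 321974 CPM in NC. None was at 0, and the shared reads of the miR-133a copies were counted under each. Most of the sum came from these copies and from miR-486a, also abundant in erythrocytes, at 141556 CPM in HC and 187306 CPM in NC. The others were far lower: miR-133b had 2201 CPM in HC and 2531 CPM in NC, miR-1a-1 had 1826 and 1320, and miR-206 had 55.6 and 59.3. The files hold no protein-coding genes, so a smooth muscle origin of the counts could not be checked against contractile genes.

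miR-143 was among the most abundant miRNAs of the tissue, and miR-145a was far less abundant. miR-143 had 2257811 counts in HC and 3193566 in NC, or 69082 CPM in HC and 76298 CPM in NC. Its share of all precursor counts was 7.24% in HC, with an exact binomial interval of 7.23 to 7.25%, and 7.28% in NC (7.28 to 7.29%). Reads of some miRNAs were listed under more than 1 precursor, and with 1 precursor kept per set of copies or overlapping hairpins (1075 sets) the share of miR-143 came to 10.3% in HC and 10.7% in NC. It ranked 4 among these sets in HC, between miR-10b and miR-133a-1, and 3 in NC, between miR-10b and miR-22.

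miR-145a had 8550 counts in HC and 11424 in NC, or 262 CPM in HC and 273 CPM in NC. Its share of precursor counts was 0.0274% in HC (0.0268 to 0.0280%) and 0.0261% in NC (0.0256 to 0.0265%). It ranked 74 of the sets in HC and 73 in NC, and in both libraries its neighbours in rank were miR-98 above and miR-340 below. Those neighbours were close to it in count: miR-98 had 8630 counts in HC and 12125 in NC, and miR-340 had 8419 in HC and 11387 in NC. A small RNA read covers a whole mature miRNA, so counts were not divided by hairpin length for these ranks. Counts per hairpin base placed miR-143 at rank 3 in both libraries and miR-145a at rank 69 in HC and 70 in NC.

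**Figure D1:**
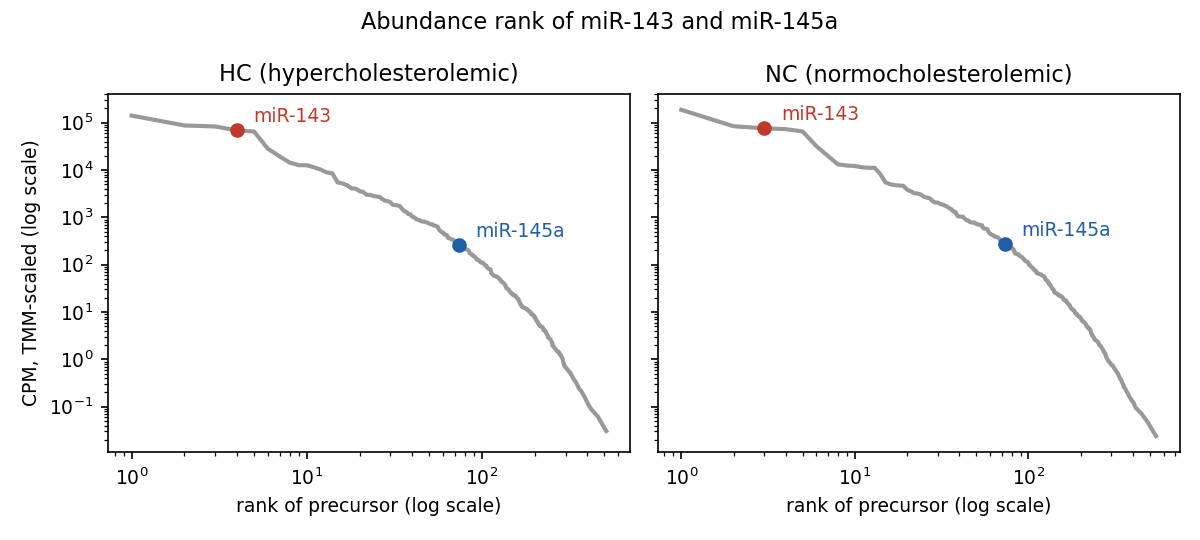
CPM (TMM-scaled, log scale) of the precursors with counts, 1 per set of copies or overlapping hairpins, against their rank in HC (left) and NC (right). miR-143 lies near the top of both curves, at 69082 CPM in HC and 76298 CPM in NC, and miR-145a at 262 CPM in HC and 273 CPM in NC.

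A paralogous hairpin, miR-145b, is listed elsewhere on chromosome 18 (69022199 to 69022273) and was close to undetected, with 2 counts in HC and 0 in NC. A count of 0 allows up to 0.0717 CPM in NC, and both libraries stood at or below 3 counts, so no fold was formed. Counts of miR-145a were therefore not shared with this hairpin in the deposited counts.

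Within a library, the counts of miR-143 and miR-145a do not depend on how libraries are scaled. miR-143 had 264 times as many counts as miR-145a in HC and 280 times as many in NC. Per hairpin base these ratios were 293 in HC and 311 in NC. In other terms, miR-145a made up 0.377% of the 2266361 counts of the cluster in HC (0.369 to 0.385%) and 0.356% of the 3204990 in NC (0.350 to 0.363%). The log2 ratio of miR-143 to miR-145a was 8.04 in HC and 8.13 in NC, a difference of -0.08 (-0.12 to -0.04), so that the balance leaned slightly more to miR-145a in HC. That interval excludes 0 for counting error and says nothing of the spread between animals. Counts of different miRNAs are not calibrated to molecule numbers in these libraries, and a precursor's counts sum reads of both its arms.

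Between the libraries, neither miRNA of the cluster differed by as much as 1.5-fold. The TMM-scaled log2 fold of HC over NC was -0.14 for miR-143 (-0.15 to -0.14), or 0.905-fold. For miR-145a it was -0.06 (-0.10 to -0.02), or 0.958-fold. Of the 2, 0 reached 2-fold in either direction, where 2.25% of the 222 compared precursors did (1.35% higher and 0.901% lower in HC). Likewise 0 of 2 reached 1.5-fold, against a background of 7.21% (2.7% higher and 4.5% lower in HC). In whole tissue, fewer cells of a type and less RNA per cell cannot be told apart.

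Counting intervals below 0 are common at this depth and do not set the cluster apart. Both members had such an interval with TMM scaling, as did 43.7% of the compared precursors, while 39.6% had one above 0. The order of the folds, unlike their sign, is free of the scaling. In that order 60 of the 222 precursors lay below miR-143, 30 lay between miR-143 and miR-145a, and 130 lay above miR-145a. The median log2 fold over all 222 was 0.00 and the central 90% ran from -0.47 to 0.47. Among the 139 other precursors with a mean level from 0.25 times that of miR-145a to 4 times that of miR-143, 133 were within 1.5-fold. Of the same 139, 36 had a lower fold than miR-143 and 83 a higher fold than miR-145a.

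**Figure D2:**
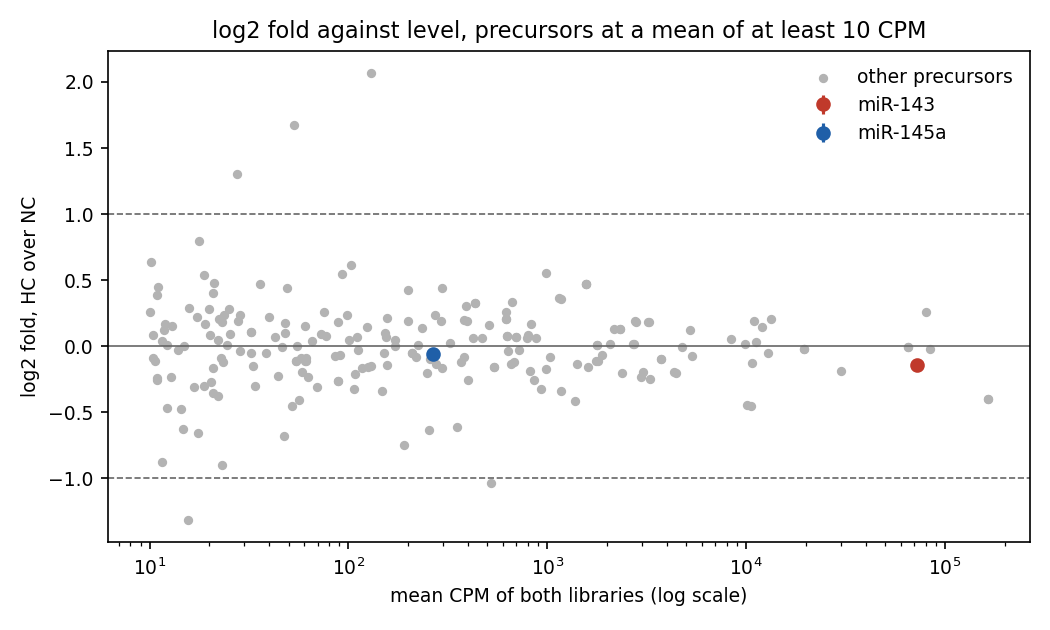
log2 fold of HC over NC against the mean CPM of both libraries (log scale) for the 222 compared precursors, with 95% counting intervals on miR-143 and miR-145a that are narrower than their symbols; dashed lines mark 2-fold. Both members lie inside the band of the other precursors, miR-143 at -0.14 and miR-145a at -0.06.

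Among the 20 most abundant sets, miR-143 had the sixth lowest fold. Below it were let-7f-2 (-0.45), miR-486a (-0.40), miR-101a (-0.21), miR-148a (-0.19) and miR-30a (-0.19). Directly above it was miR-378a (-0.13), a miRNA of mitochondrial metabolism that also lies on chromosome 18. The top of that order was held by miR-22 at 0.26, with 2862013 counts in HC and 3058495 in NC, so miR-22 outnumbered miR-143 in HC and not in NC. miR-10b (-0.02) and miR-133a-1 (-0.01) lay closer to 0 than miR-143.

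The size of the members' folds, and for miR-145a also the sign, depended on the scaling. With plain totals every log2 fold shifted by 0.13, which put miR-143 at -0.0092 and miR-145a at 0.073 (0.03 to 0.11). With the authors' own denominators the shift was -0.11, which put miR-143 at -0.26 and miR-145a at -0.17. Median-of-ratios scaling, totals without the 10 most abundant precursors and TMM over 1 precursor per set placed miR-143 between -0.14 and -0.13 and miR-145a between -0.06 and -0.04. A direction of miR-145a between the libraries is therefore not given, and miR-143 was lower in HC by an amount that ranged from near 0 to 0.26 on the log2 scale.

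**Figure D3:**
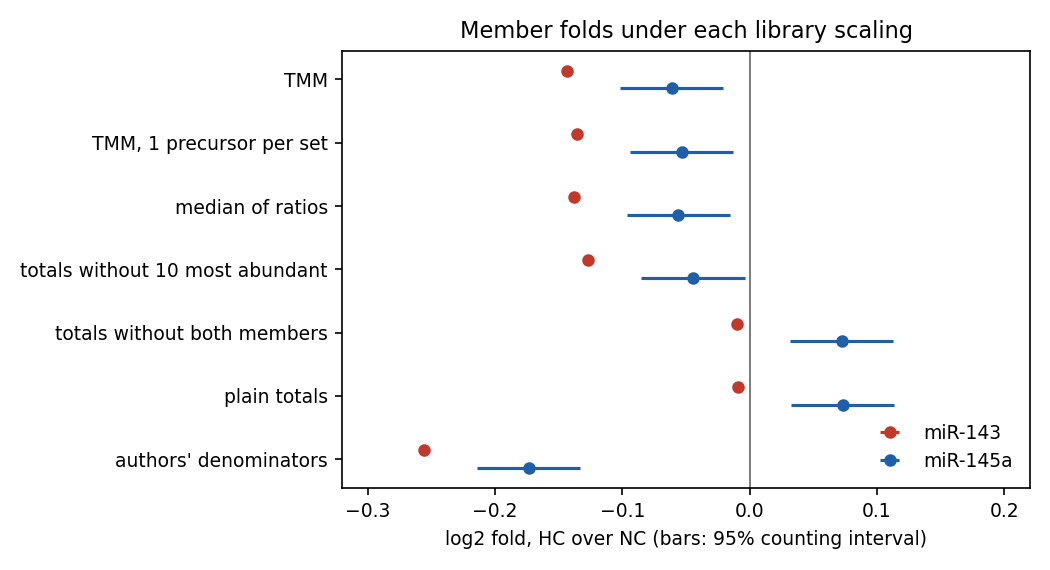
log2 fold of HC over NC of miR-143 and miR-145a under 7 library scalings (rows), with 95% counting intervals as bars. miR-143 stays below 0 under each of them, whereas miR-145a is at 0.073 with plain totals and at 0.072 with totals that leave out both members.

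How far neighbouring precursors usually differ was read from the same libraries. Among the 222 compared precursors there were 61 adjacent pairs on the same strand with starts within 10000 bases. Precursors below the limit of 10 CPM were skipped, so a rarer hairpin can lie between the members of a pair. Hairpins overlapping on that strand and pairs whose counts matched within 1% were left out. Copies at separate loci and hairpins overlapping on opposite strands stayed in, so the pairs are not all distinct. For example, miR-1a and miR-133a entered from both of their loci, at 0.47 each. Their log2 folds differed by a median of 0.17 (quartiles 0.07 and 0.34, largest 0.89). miR-143 and miR-145a differed by 0.08, place 19 from the smallest difference, between miR-23b and miR-27b (0.08) and the Dlk1-Dio3 neighbours miR-337 and miR-540 (0.10). In this measure the cluster was thus one of the closer pairs, with 18 pairs closer and 42 farther apart. That order made no allowance for counting error, which is wider for pairs with few counts. The muscle pair miR-133a-1 and miR-1a-2, on the same chromosome, differed by 0.47.

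In level, by contrast, the members of the cluster were farther apart than those of nearly all of the 61 pairs. Counts of the median pair differed 7.30-fold in HC and 7.28-fold in NC. With 264-fold in HC and 280-fold in NC, miR-143 and miR-145a held place 2 from the largest ratio in both libraries, and per hairpin base they held place 2 in both as well. The sole pair farther apart was miR-127 and miR-431, at 506-fold in HC and 396-fold in NC, and after the cluster came miR-15b and miR-16-2, at 81.9-fold in HC and 100-fold in NC.

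**Figure D4:**
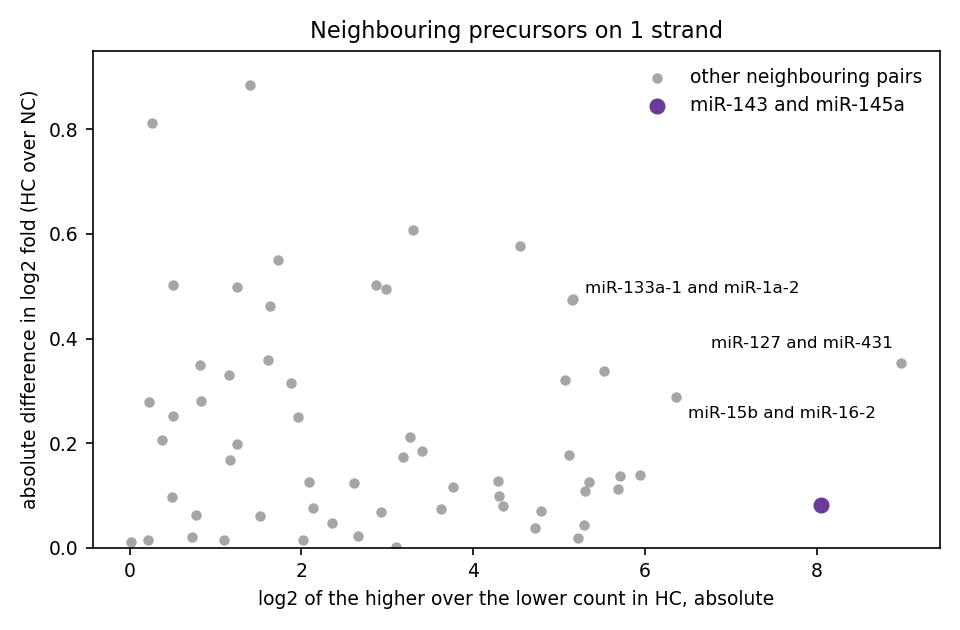
Each point is 1 of 61 neighbouring precursor pairs, placed by the absolute log2 ratio of their counts in HC and by the absolute difference of their log2 folds of HC over NC. miR-143 and miR-145a lie far to the right, at a ratio of 8.04 on the log2 scale, and low, at a difference of 0.08.

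The precursors most like the cluster in fold were sought in the window of level given above, by their distance from the mean of the members' log2 folds (-0.10) over the 2 libraries. The 5 nearest were miR-30e and miR-30f at -0.10, whose hairpins coincide and whose counts are equal, then miR-93 at -0.10, and miR-30c-2 and miR-30c-1 at -0.11. miR-30e had 117534 counts in HC and 161027 in NC, and miR-93 had 8128 in HC and 11127 in NC. The distances were at most 0.01 on the log2 scale, in a range that many precursors fill, and likeness over 2 libraries carries little information. Of the 5 precursors, 4 belong to the miR-30 family, but miR-30e and miR-30f coincide and miR-30c-1 and miR-30c-2 are copies. Elsewhere in that family miR-30b was at -0.12, miR-30d at -0.01 and miR-30a at -0.19, so the family did not share 1 fold. The mature sequences of the nearest precursors, from RefSeq (GRCm38.p6), are shown because of this family membership. The capitals mark the seed, bases 2 to 8, which miR-30e and miR-30c share and miR-93 does not:
miR-30e-5p: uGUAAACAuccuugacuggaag
miR-30c-5p: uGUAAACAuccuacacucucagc
miR-93-5p: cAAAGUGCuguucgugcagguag

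Other miRNAs with reported roles in vascular smooth muscle did not share a direction. Of the 9 precursors listed for restraint of growth or for differentiation, all 9 were compared and 0 reached 1.5-fold either way. Their median log2 fold was 0.01, beside 0.00 over all compared precursors, with 4 counting intervals above 0 and 4 below. Over all compared precursors 7.21% reached 1.5-fold, 39.6% had an interval above 0 and 43.7% one below, so these counts do not set the list apart. miR-100, which restrains growth signalling through mTOR, was at 0.33, with 739 CPM in HC and 586 CPM in NC, and miR-10a was at 0.20. miR-204 was at -0.16, with 111 CPM in HC and 124 CPM in NC, miR-322 at -0.09 and miR-195a at 0.01. miR-1a-1 and miR-1a-2 were at 0.47 each and the miR-133a copies at -0.01 each, but these abundant precursors are shared with skeletal muscle, and the copies hold nearly the same counts.

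Of the 10 precursors listed as rising or acting in growing or inflamed smooth muscle, 9 were compared and again 0 reached 1.5-fold. Their median was -0.02, with 3 counting intervals above 0 and 4 below, against the same shares of 7.21% past 1.5-fold, 39.6% above 0 and 43.7% below over all compared precursors. miR-21a, induced in injured arteries, was at -0.08, with 5210 CPM in HC and 5489 CPM in NC. miR-146a was at 0.14, both miR-24 precursors at 0.07, both miR-26a precursors at -0.02 and miR-155 at -0.05 (-0.16 to 0.06). miR-31 lay below the limit of level, at 4.16 CPM in HC and 4.92 CPM in NC. miR-221 and miR-222, which lower the cell cycle inhibitor p27 in growing smooth muscle cells, come from a common locus on chromosome X and share their seed (capitals), as the RefSeq sequences show:
miR-221-3p: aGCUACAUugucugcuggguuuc
miR-222-3p: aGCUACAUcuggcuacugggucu
miR-221 had 3624 counts in HC and 4725 in NC, a log2 fold of -0.03 (-0.09 to 0.04). miR-222 had 2031 counts in HC and 3215 in NC, a log2 fold of -0.31 (-0.39 to -0.23), so this pair differed more between its members (0.28) than miR-143 and miR-145a did.

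Set against markers of other cells within the same library, the cluster again showed no single direction. These ratios are free of the library scaling, and the intervals on their differences were computed on the log scale. Relative to miR-126a, the main endothelial miRNA, the log2 ratio of miR-143 was 2.60 in HC and 2.78 in NC, a difference of -0.18 (-0.18 to -0.17). For miR-145a over miR-126a the difference was -0.09 (-0.14 to -0.05). Relative to the mesenchymal miR-199a-1, abundant in fibroblasts, the differences were -0.28 (-0.29 to -0.26) for miR-143 and -0.19 (-0.24 to -0.15) for miR-145a. The differences over miR-199a-2 and miR-199b were the same to 2 decimals. Over the fourth fibroblast marker, miR-214, the difference was -0.14 (-0.24 to -0.04) for miR-143, while for miR-145a it was -0.06 with an interval that held 0 (-0.16 to 0.05).

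Against skeletal muscle markers the result depended on the marker. Over miR-133a-1 the log2 ratio of miR-143 was 0.09 in HC and 0.22 in NC, a difference of -0.14, and over miR-1a-1 the difference was -0.61. Over miR-486a, also abundant in erythrocytes, it was 0.26 in the other direction (-1.03 in HC and -1.30 in NC), and over miR-133b it was 0.06. For miR-145a the differences were -0.06 over miR-133a-1, -0.53 over miR-1a-1, 0.34 over miR-486a and 0.14 over miR-133b. Over miR-206 both intervals held 0.

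Of the 19 cell type markers, the ratio of miR-143 to the marker was lower in HC for 12, higher for 5, and had an interval that held 0 for 2. For miR-145a the same counts were 11, 6 and 2. These counts include the 3 miR-199 precursors and the 2 miR-133a copies separately. A precursor with a higher log2 fold than the member gives a ratio that is lower in HC. Of the 222 compared precursors, 161 had a higher fold than miR-143 and 60 a lower one, without regard to intervals. For miR-145a these were 130 and 91, so the counts do not set the markers apart.

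**Figure D5:**
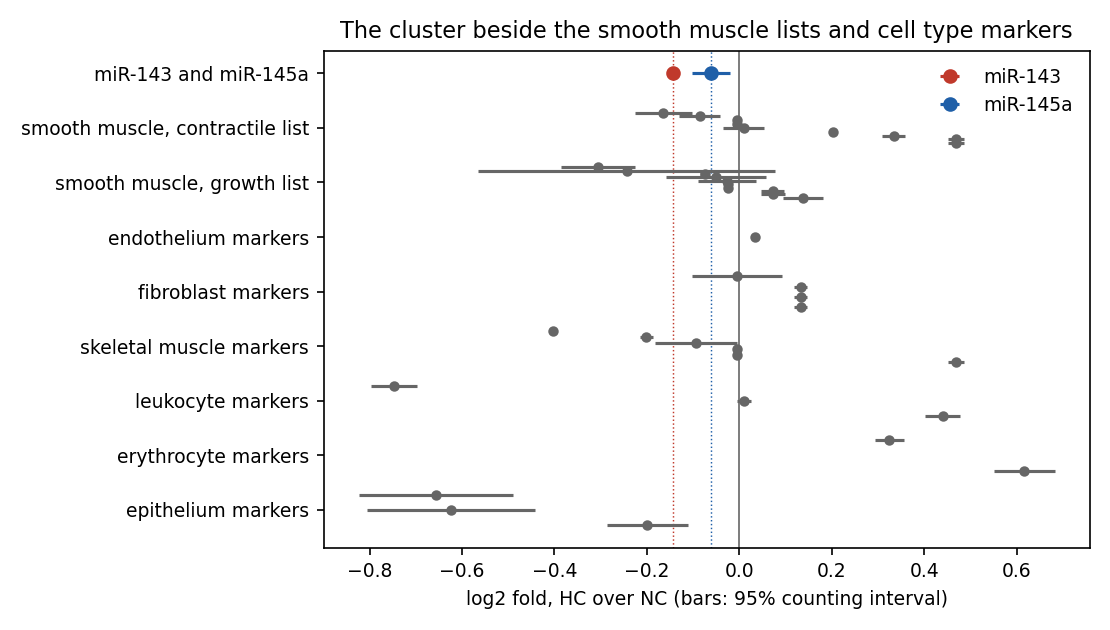
log2 fold of HC over NC (TMM) of miR-143 and miR-145a (top row, dotted lines carried down) beside each precursor of the smooth muscle lists and the cell type markers, with 95% counting intervals as bars. Precursors of every list with more than 3 members lie on both sides of the members' folds, apart from the fibroblast markers, which lie above both.

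Marker levels of other cells also differed between the libraries, and their part in the values of the cluster was not tested. The endothelial marker miR-126a was at 11407 CPM in HC and 11144 CPM in NC. The 4 fibroblast markers summed to 7147 CPM in HC and 6522 CPM in NC, with a median log2 fold of 0.13. That sum and median came almost wholly from the 3 miR-199 precursors, which had similar counts and were at 0.13 each. The fourth marker, miR-214, was at -0.01, with 46.3 CPM in HC and 46.5 CPM in NC. Leukocyte markers summed to 2266 CPM in HC and 2259 CPM in NC, although miR-223 of neutrophils was at 0.44 and miR-150 of lymphocytes at -0.75. The 2 erythrocyte markers summed to 609 CPM in HC and 468 CPM in NC, and the 3 epithelial markers to 79.4 CPM in HC and 101 CPM in NC. In none of these lists was a marker at 0 in either library.

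The cluster lies on a chromosome with 32 listed precursors, of which 19 had counts and 6 were compared. Besides the members these were miR-378a, miR-133a-1, and miR-1a-2 with the overlapping miR-1b, which lies on the opposite strand. Their log2 folds were -0.13 for miR-378a, -0.01 for miR-133a-1 and 0.47 for both miR-1a-2 and miR-1b. The nearest of them, miR-378a, had 334406 counts in HC and 468768 in NC and starts at 61397835.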

How the data were processed

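Libraries were made from ischemic hindlimb muscle, 1 HC and 1 NC, with the TruSeq small RNA kit after Trizol and mirVana extraction, per the labels' protocols. Named in the submitters' processing notes are the build mm10 and, without their roles, HTSeq 0.5.4, TopHat2 2.0.10 and CASAVA 1.8.2; for adapter trimming and multiple alignments, nothing is given in the labels. The deposited files hold the authors' read counts per precursor. A further deposited column, headed RPM by the authors, was treated as a scaled signal: it was the count times a constant, with denominators of 27222821 in HC and 32252170 in NC, and served for 1 alternative scaling. The summary row of counts outside all precursors (55.9% of counts in HC, 44.1% in NC) stayed out of library sizes.

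Scaling used TMM in edgeR 4.0.16 (R 4.3.3), with no edgeR test; DESeq2 1.42.0 gave the median-of-ratios alternative. Folds carry exact conditional binomial (Clopper-Pearson) intervals, the ratio of the members a conditional exact interval, and ratios to markers log-scale intervals (Python 3.11.15, scipy 1.17.1). No pseudocount was added. The fold procedure was tested on simulated counts. Strands and genes came from GENCODE M21 and RefSeq (GRCm38.p6), which match mm10; all 1187 hairpins had a strand. Named precursors were the members, miR-145b, the lists and markers, the 5 nearest in fold, neighbours in rank and neighbouring pairs; let-7f-2, miR-101a, miR-148a, miR-30a, miR-378a, miR-1b, miR-127, miR-431, miR-15b and miR-16-2 were named after their values were seen, and so were the sequences shown. The members and lists were chosen with earlier results of these data known.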

Additional observations from a re-analysis of the deposited data

Results flagged for a closer look

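Counts outside all precursors, which no comparison used, made up a larger share of the listed counts in the hypercholesterolemic library, 55.9%, than in the normocholesterolemic control, 44.1%.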

How the results depend on the processing

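No paired analysis was possible because each group held 1 library. For the same reason no library could be left out. The log2 fold of miR-143 (TMM -0.14) was -0.0092 with plain totals, -0.0099 with totals without the members, -0.14 with median-of-ratios scaling, -0.13 without the 10 most abundant precursors, -0.14 with TMM over 1 precursor per set (an alternative chosen after seeing the data) and -0.26 with the authors' denominators. For miR-145a (TMM -0.06) plain totals and totals without the members gave 0.073 and 0.072, above 0, and the authors' denominators -0.17; the 3 other scalings stayed within its counting interval. The difference in the log2 ratio of miR-143 to miR-145a stayed at -0.08 per hairpin base and with a pseudocount of 1. The count of precursors at least 2-fold apart (5) was 10 with totals without the 10 most abundant, 13 with a lower limit of 1 CPM, 3 with one of 50 CPM, and 10 without any limit and with 0.5 CPM added; neither member reached 2-fold in any of these. The median difference within neighbouring pairs (0.17) was 0.18 within 3000 bases and 0.14 with overlapping pairs kept. The list medians move with the scaling by construction: the contractile list (0.01) was at 0.14 with plain totals, 0.015 with median of ratios, -0.10 with the authors' denominators, 0.027 without the 10 most abundant, 0.14 without the members and 0.018 with 1 precursor per set, and the growth list (-0.02) at 0.11, -0.019, -0.14, -0.0082, 0.11 and -0.017 in the same order. Depth sets narrow counting limits, and with 1 library per group it sets none for the spread between animals.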
